A study of Mus musculus with 6 samples.

Results

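The genes described here are 8 genes known from the mucosal surface of the mouse gut: Oit1, Pglyrp1, Spink4, Muc3, Muc3a, Lypd8, Prss32 and Dmbt1. They were selected on their counts in these same tumours, as genes far higher in sgUhrf1 than in sgNT tumours, so their levels in that comparison are a description and get no test. All 8 were found, among 10769 genes that could be named by position in the count tables, and all 8 passed the filter on low counts, which kept 4579 of those genes. For 4 of the 8 the sgNT tumours held 0 counts, so these passed through the sgUhrf1 tumours alone. The same holds for Oit1, with 5, 2 and 3 sgNT counts, and Spink4, with 1, 3 and 0. Dmbt1, with 5 counts in sgNT replicate 3, also needed the sgUhrf1 tumours to pass. Only Pglyrp1 would have passed on the sgNT tumours alone. Each gene had to have a row covering at least 50 bp of its exons. The narrowest row, that of Lypd8, covered 121 bp, and no row over these genes fell under the minimum.

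The tumours were grown from LG1233-OVA, labelled as murine lung cancer cells with OVA (the antigen ovalbumin), and RNA was measured by poly(A)-selected, paired-end sequencing of whole tumours. The sgUhrf1 group was grown from stable cells made with CRISPR/Cas9 and labelled as a Uhrf1 knockout. The sgNT group was grown from cells of the same line labelled as wild type. In both groups 1000000 cells were placed under the skin of female C57BL/6 mice and tumours were taken on day 27, with 3 tumours per group. The sources used here do not give the age of the mice, the cut site or whether a line is 1 clone, and host cells in a tumour keep an intact Uhrf1. Whole tumours hold cancer and host cells, so more cells of a type and more RNA per cell cannot be told apart in any value below.

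Total counts ran from 5462555 to 6375069 per tumour. Of 10503 tested rows, 39.9% passed an edgeR adjusted p of 0.05 in either direction, 20.2% as higher and 19.7% as lower in sgUhrf1 tumours. Uhrf1 itself held 685, 460 and 409 counts in sgUhrf1 tumours and 841, 917 and 554 counts in sgNT tumours. These come from a row of 2305 bp that holds 690 of the 4259 bp of Uhrf1 exon, so they measure the gene only in part. The groups overlapped and the difference did not pass (log2 fold change -0.37 ± 0.23 SE, edgeR adjusted p = 0.227). The cut site is not known here and a frameshift can leave a transcript in place, and the labels are not tested by this RNA level. Skeletal muscle RNA stood apart in 1 tumour of each group. The summed level of 6 muscle genes was 250 CPM in sgUhrf1 replicate 1 and 17.8 and 26.4 CPM in the other sgUhrf1 tumours, against 308 CPM in sgNT replicate 2 and 7.92 and 3.01 CPM in the other sgNT tumours. Of 2 muscle genes tested, 0 passed with edgeR and 0 had an unadjusted edgeR p under 0.05 (Ckm log2 -0.19 ± 1.61, Ryr1 log2 0.09 ± 1.00, SE). Ryr1 did not pass with DESeq2 either, and no DESeq2 result was available for Ckm. With edgeR, Ckm passed once sgNT replicate 2 was left out (log2 5.73, edgeR adjusted p = 0.0253) or both muscle-rich tumours were (log2 3.49, adjusted p = 0.0266). CPM are counts per 1000000 counts after TMM scaling, a correction for library composition.

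The gut epithelium keeps microbes away with a layer of mucus, with proteins that bind or kill bacteria, and with membrane-anchored mucins that form a coat on the cells. Goblet cells secrete most of the gel-forming mucin and its partner proteins, while absorptive cells carry the anchored mucins and release several antibacterial proteins. Some of these proteins are shared with other cells: peptidoglycan recognition protein 1, for instance, is stored in neutrophil granules. The 8 genes span these roles, with cell-surface mucins (Muc3, Muc3a), proteins that act on bacteria (Lypd8, Pglyrp1, Dmbt1), a goblet cell protease inhibitor (Spink4), a serine protease (Prss32) and a secreted cytokine-like protein (Oit1, also called Fam3d).

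Promoters are shown because Uhrf1 protein is known for maintaining DNA methylation at CG dinucleotides, and the letters let a reader see how many CG sites lie at the starts that RefSeq gives. RefSeq sequences of 300 bases on GRCm38.p6, from 250 before to 50 after the gene start, were matched by symbol for 5 of the 8 genes. Capitals mark CG. The windows are chr14:8378714-8379013 on the minus strand for Oit1, chr7:18884440-18884739 on the plus strand for Pglyrp1, chr5:137165997-137166296 on the minus strand for Muc3, chr11:58378782-58379081 on the plus strand for the upstream start of Lypd8, and chr17:23853522-23853821 on the plus strand for Prss32. The RefSeq start of Muc3 lies upstream of the GENCODE gene given below, and that of Prss32 lies inside its GENCODE gene, so these windows are not at the ends of those spans.
Oit1: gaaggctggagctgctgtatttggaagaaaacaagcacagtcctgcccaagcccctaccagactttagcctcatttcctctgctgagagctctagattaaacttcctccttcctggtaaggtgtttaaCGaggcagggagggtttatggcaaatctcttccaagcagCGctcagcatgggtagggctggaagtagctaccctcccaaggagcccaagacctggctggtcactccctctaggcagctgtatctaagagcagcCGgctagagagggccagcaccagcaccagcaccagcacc
Pglyrp1: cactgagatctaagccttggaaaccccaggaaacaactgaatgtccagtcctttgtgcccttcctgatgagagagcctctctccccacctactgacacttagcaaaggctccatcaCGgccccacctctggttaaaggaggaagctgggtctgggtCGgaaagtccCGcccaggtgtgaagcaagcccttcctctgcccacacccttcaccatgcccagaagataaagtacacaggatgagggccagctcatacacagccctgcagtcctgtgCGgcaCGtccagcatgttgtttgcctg
Muc3: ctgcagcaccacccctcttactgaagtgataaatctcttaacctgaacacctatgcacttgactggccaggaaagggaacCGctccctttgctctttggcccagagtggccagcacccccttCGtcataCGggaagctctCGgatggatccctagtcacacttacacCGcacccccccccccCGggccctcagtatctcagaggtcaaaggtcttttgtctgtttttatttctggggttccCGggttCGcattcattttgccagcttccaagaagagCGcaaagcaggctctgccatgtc
Lypd8: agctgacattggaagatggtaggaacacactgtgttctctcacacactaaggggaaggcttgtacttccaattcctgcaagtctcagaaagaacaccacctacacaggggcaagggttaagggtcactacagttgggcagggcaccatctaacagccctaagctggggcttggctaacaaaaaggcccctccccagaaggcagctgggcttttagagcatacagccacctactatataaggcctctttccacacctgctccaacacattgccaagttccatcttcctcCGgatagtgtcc
Prss32: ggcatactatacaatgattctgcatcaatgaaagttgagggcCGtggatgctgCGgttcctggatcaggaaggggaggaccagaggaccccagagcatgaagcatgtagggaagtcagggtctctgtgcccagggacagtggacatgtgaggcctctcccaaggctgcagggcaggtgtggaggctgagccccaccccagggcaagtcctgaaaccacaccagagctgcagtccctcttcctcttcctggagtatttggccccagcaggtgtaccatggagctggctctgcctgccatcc

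The 5 windows differed in how many CG they hold. Muc3 has 9, Pglyrp1 has 5, Oit1 has 3, Prss32 has 2 and the upstream start of Lypd8 has 1. A downstream start of Lypd8, chr11:58380396-58380695, has 12. Over 32851 mouse promoters in the same table the median was 7, so 4 of the 6 windows lie at or under it. The share of all promoters with no more CG than the window shown was 14.1% for Lypd8, 23.3% for Prss32, 31.4% for Oit1, 43.6% for Pglyrp1 and 56.5% for Muc3. No methylation was measured in these tumours, so the counts of CG describe the sequence only.

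Motifs of factors known from gut epithelium, and the TATA box letters TATAAA, were searched on both strands in the 6 windows. The GATA letters AGATAA occur in Pglyrp1, starting 30 bases before the gene start, and in the downstream window of Lypd8; 11.2% of all promoters hold them. The CDX letters TTTATG occur in Oit1, 108 bases before the start, and in 11.9% of all promoters. CAAAGGT, found in sites of HNF4 and related nuclear receptors and overlapping none of the other motifs, occurs in Muc3, 45 bases before the start, and in 4.09% of all promoters; this motif was added after the Muc3 window had been read. The letters CAAAGTC and TATAAA occur in none of the 6 windows, against 4.44% and 13.6% of all promoters. No motif given here was common to more than 2 of the windows, which holds for these exact letters only. Other forms were not counted, such as TGATAA for GATA in the Muc3 window and TATATAA for the TATA box in the upstream Lypd8 window. A match is a description of letters, not a bound site.

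In all 8 genes every sgUhrf1 tumour stood above every sgNT tumour. This separation chose the genes and is no result, and it was found in 26.4% of all genes tested and 26.6% of all rows tested. The fold was at least 322 for the 4 genes without sgNT counts, and the ratio of group means was between 11.7 and 946 for the others. These limits depend on how many tumours stand behind them: without sgNT replicate 1 or 2, which leaves fewer counts to set a limit from, they were 329 and 318 for Muc3, 214 and 206 for Muc3a, 479 and 463 for Lypd8 and 384 and 371 for Prss32. Without sgUhrf1 replicate 2, the highest tumour, they were 163 for Muc3a and 404 for Lypd8. Oit1 and Pglyrp1 had the highest CPM in sgUhrf1 tumours, and Pglyrp1 and Dmbt1 were the only ones of the 8 whose mean in sgNT tumours was above 1 CPM.

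**Figure D1:**
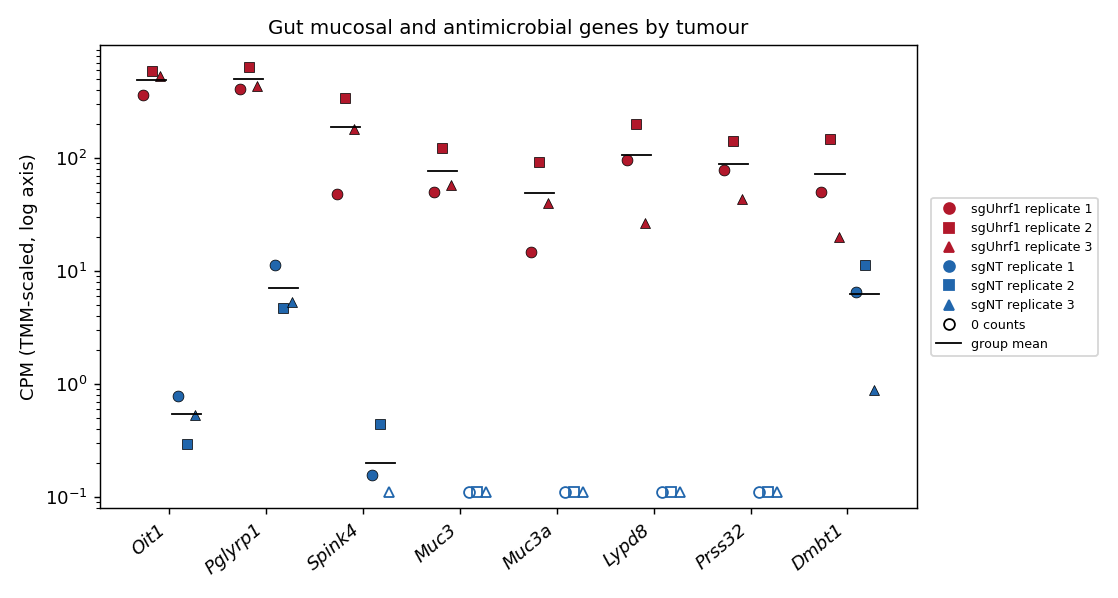
CPM of the 8 genes in each tumour on a log axis, with sgUhrf1 tumours in red left of sgNT tumours in blue, a symbol for each replicate number and bars at group means. Open symbols at the bottom are tumours with 0 counts; Muc3, Muc3a, Lypd8 and Prss32 had 0 counts in all 3 sgNT tumours, and the gap between the groups was smallest for Dmbt1, whose sgNT tumours reached 11.3 CPM.

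Muc3 (ENSMUSG00000037390.12, chromosome 5, 137134922 to 137149322, minus strand) encodes a membrane-anchored mucin of the coat on absorptive cells. Its row covers 1417 bp of exon, of which 802 bp are coding and the rest untranslated or in a non-coding transcript, in 9 pieces. It held 284, 767 and 264 counts in the sgUhrf1 tumours and 0 counts in each sgNT tumour. That is 50.3, 122 and 58.1 CPM in sgUhrf1 tumours, and at least 497-fold higher than the sgNT group, taken at a floor of 3 counts over the group. All 3 sgUhrf1 tumours carried the RNA, with replicate 2 above the others. A count of 0 allows up to 3 counts, or 0.445 to 0.532 CPM in a sgNT tumour. Such floors cover counting error only.

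Muc3a (ENSMUSG00000094840.5, chromosome 5, 137208813 to 137212389, minus strand) is annotated as a separate mucin gene, in a stretch that GENCODE marks as a reference genome error. Its row covers 254 bp of exon, of which 16 bp are coding, so the values rest almost wholly on the untranslated end. It held 83, 587 and 183 counts in sgUhrf1 tumours and 0 in each sgNT tumour, at least 322-fold higher. Another row, over 291 bp of the last exon and partly over the same bases, held 14, 103 and 34 counts in sgUhrf1 tumours and 0, 1 and 0 counts in sgNT tumours. Both rows of Muc3a were highest in sgUhrf1 replicate 2 and lowest in replicate 1.

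Since both mucins share a name, their transcripts were aligned to see whether reads could pass between them. The best local alignment of the longest coding transcripts, of 1853 and 1881 bases, took in 31 columns with 25 identical bases, and the longest run of letters in common was 10 bases. The aligned stretches show how short the likeness is. Capitals mark letters that differ or face a gap.
Muc3: ctgtgtttCaaCtcCactGccaCcaaggtg
Muc3a: ctgtgtttTaaGtcTGactccaTcaaggtg
The other annotated transcripts, and parts of either gene outside the annotation, were not compared. Muc3a held 0.292, 0.765 and 0.693 counts for each count of Muc3 in sgUhrf1 replicates 1, 2 and 3, so the balance of both mucin rows varied by 2.62-fold between tumours.

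Lypd8 (ENSMUSG00000013643.13, chromosome 11, 58379043 to 58390728, plus strand) encodes a membrane-anchored protein of the colon that binds bacterial flagella and keeps motile bacteria off the epithelium. Its row covers only 121 bp of exon, in 2 pieces at the 5′ end of the gene and none of it coding, which is 3.53% of the row's length; the rest of the row lies over no annotated exon but takes in the downstream start. It held 540, 1254 and 121 counts in sgUhrf1 tumours and 0 in each sgNT tumour, at least 724-fold higher. The sgUhrf1 tumours spread widely, at 95.6, 199 and 26.6 CPM.

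Pglyrp1 (ENSMUSG00000030413.7, chromosome 7, 18871331 to 18890459, plus strand) encodes a secreted protein that binds bacterial peptidoglycan and kills bacteria. Its row, covering 518 bp of exon of which 248 bp are coding, held 2299, 4067 and 1984 counts in sgUhrf1 tumours and 71, 32 and 30 counts in sgNT tumours. The levels were 496 ± 130 CPM in sgUhrf1 tumours and 7.10 ± 3.60 CPM in sgNT tumours (SD, n = 3 each), with a log2 fold change of 6.12 ± 0.39 (SE). It was the gene of the 8 with most sgNT counts, 133 in all, and present in every sgNT tumour. Without sgNT replicate 1, the highest of the sgNT tumours, the log2 fold change was 6.60.

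Other rows place the Pglyrp1 reads downstream of the RefSeq start shown above. A row over 398 bp of exons further upstream, used by non-coding transcripts, held 12, 7 and 1 counts in sgUhrf1 tumours and 11, 4 and 5 counts in sgNT tumours, and the groups overlapped. A row over 172 bp of those same exons held 19, 12 and 6 counts in sgUhrf1 tumours and 2, 0 and 2 counts in sgNT tumours. A row over the most downstream exon and the neighbouring gene Ccdc61 held 4109, 6511 and 4830 counts in sgUhrf1 tumours and 455, 307 and 235 counts in sgNT tumours, and how its reads divide between both genes is unknown.

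Dmbt1 (ENSMUSG00000047517.11, chromosome 7, 131032053 to 131121630, plus strand) encodes a large secreted glycoprotein with scavenger receptor repeats that binds and clumps bacteria. Its row covers 321 bp of coding exon, 4.55% of the gene's 7057 bp, and the repeats within the gene resemble each other, so reads may be shared among its own exons. It held 281, 936 and 91 counts in sgUhrf1 tumours and 41, 76 and 5 counts in sgNT tumours. The levels were 72.8 ± 67.3 CPM in sgUhrf1 tumours and 6.21 ± 5.20 CPM in sgNT tumours (SD, n = 3 each), a log2 fold change of 3.53 ± 0.85 (SE), the smallest of the 8. It was 2.46 without sgUhrf1 replicate 2, 4.25 without sgNT replicate 2 and 4.48 without both muscle-rich tumours. A second row, covering 390 bp, held 173, 585 and 99 counts in sgUhrf1 tumours and 34, 69 and 7 counts in sgNT tumours, with a log2 fold change of 3.09 ± 0.72. In both rows replicate 2 was the highest and replicate 3 the lowest tumour of each group.

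Spink4 (ENSMUSG00000028415.4, chromosome 4, 40920052 to 40931395, plus strand) encodes a small Kazal-type protease inhibitor secreted by goblet cells. It is the gene of the 8 whose row carries its own name, and the row covers all 477 bp of its exons. It held 271, 2153 and 821 counts in sgUhrf1 tumours and 1, 3 and 0 counts in sgNT tumours, a log2 fold change of 9.67 ± 0.97 (SE). It was 8.91 without sgUhrf1 replicate 2 and 10.80 without sgNT replicate 2. Within the sgUhrf1 group it ran from 48.0 CPM in replicate 1 over 181 CPM in replicate 3 to 342 CPM in replicate 2.

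Prss32 (ENSMUSG00000048992.9, chromosome 17, 23843855 to 23859779, plus strand) encodes a trypsin-like serine protease. Its row covers 169 bp of coding exon, which is 3.19% of the row's 5303 bp, and runs past the end of the gene. Counts from the rest of the row cannot be told apart from those of the exon. The row held 446, 892 and 197 counts in sgUhrf1 tumours and 0 in each sgNT tumour, at least 580-fold higher. In CPM the sgUhrf1 tumours stood at 79.0, 142 and 43.3, in the same order as Lypd8.

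Oit1 (ENSMUSG00000021749.6, chromosome 14, 8348937 to 8378754, minus strand) encodes a cytokine-like protein secreted by the gut. Its row covers 380 bp of exon at the 3′ side, of which 139 bp are coding, and held 2033, 3739 and 2416 counts in sgUhrf1 tumours and 5, 2 and 3 counts in sgNT tumours. The levels were 495 ± 121 CPM in sgUhrf1 tumours and 0.540 ± 0.248 CPM in sgNT tumours (SD, n = 3 each), a log2 fold change of 9.80 ± 0.38 (SE). A second row over 108 bp of another exon held 307, 787 and 303 counts in sgUhrf1 tumours and 7, 5 and 3 counts in sgNT tumours, a log2 fold change of 6.64 ± 0.46. Both rows separated the groups, but the fold of the second row was smaller, and with both rows summed the log2 fold change was 8.71.

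Levels of different genes can be compared only per length. In sgUhrf1 tumours, CPM per kb of covered exon averaged 1302 ± 318 for Oit1, 958 ± 251 for Pglyrp1, 885 ± 717 for Lypd8, 520 ± 294 for Prss32, 399 ± 308 for Spink4, 227 ± 210 for Dmbt1, 194 ± 158 for Muc3a and 54.1 ± 27.7 for Muc3 (SD, n = 3). The tumours of each neighbouring pair in this order overlapped. A read pair counts when any part of it touches a row, so this scale overstates genes with little exon in the row, such as Lypd8 and Prss32. Exon of the gene made up 13.6% of the row for Oit1, 15.3% for Muc3, 18.6% for Muc3a, 19.8% for Pglyrp1 and 81.5% for Dmbt1. Counts from the rest of a row are not separated.

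The sgUhrf1 tumours did not hold the 8 genes in equal measure. Replicate 2 was the highest sgUhrf1 tumour for all 8, as it was for 34.8% of the 2894 genes tested with a mean of at least 10 CPM in that group. Replicate 1 was the lowest for Oit1, Pglyrp1, Spink4, Muc3 and Muc3a, and replicate 3 for Lypd8, Prss32 and Dmbt1. With scaling by total counts in place of TMM, replicate 2 was still the highest for each, but replicate 3 became the lowest for Pglyrp1 and Muc3. The highest tumour exceeded the lowest by 7.48-fold for Lypd8, 7.42-fold for Dmbt1, 7.12-fold for Spink4 and 6.34-fold for Muc3a, against 1.65-fold for Oit1 and 1.59-fold for Pglyrp1. The median of this ratio over those 2894 genes was 1.51.

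**Figure D2:**
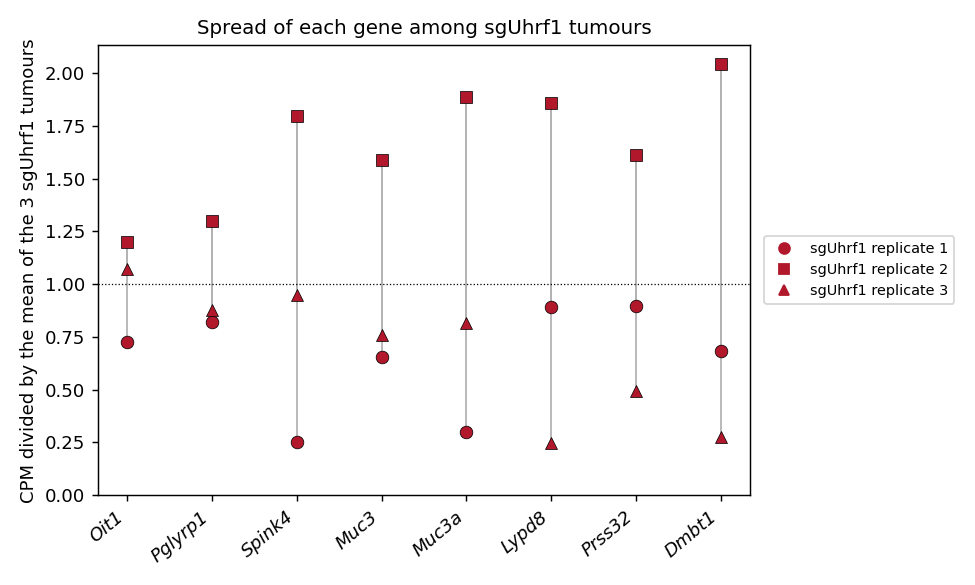
CPM of each gene in the 3 sgUhrf1 tumours, divided by their mean, on a linear axis; the dotted line marks the mean. Replicate 2 is the highest for every gene, Oit1 and Pglyrp1 differ by 1.65-fold and 1.59-fold between tumours, and Lypd8 by 7.48-fold.

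Ratios of counts within a tumour do not depend on scaling and show the same contrast. Pglyrp1 held 1.13, 1.09 and 0.821 counts for each count of Oit1 in sgUhrf1 replicates 1, 2 and 3, a 1.38-fold range. Spink4 held 0.133, 0.576 and 0.340 counts for each of Oit1, a 4.32-fold range. For Lypd8 the ratio to Oit1 was 0.266, 0.335 and 0.0501, a 6.70-fold range. The order of tumours thus differed between Spink4, lowest in replicate 1, and Lypd8, lowest in replicate 3.

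Other measures also differed between the sgUhrf1 tumours. Replicate 1, lowest for 5 of the 8 genes, held the muscle RNA given above, while replicate 3 was the lowest for Lypd8, Prss32 and Dmbt1. The summed level of 4 Y-linked genes, which a female host lacks, was 162, 78.1 and 230 CPM in sgUhrf1 replicates 1, 2 and 3, and 95.8, 71.2 and 70.5 CPM in sgNT replicates 1, 2 and 3. Replicate 2, the highest for all 8 genes, was thus the sgUhrf1 tumour with the lowest Y-linked level. Eif2s3y rose by 1.70 ± 0.45 on the log2 scale (edgeR adjusted p = 0.0157), a call lost without sgUhrf1 replicate 3 (0.0534) or without both muscle-rich tumours (0.0848). The other Y-linked genes missed the threshold, at log2 0.73 ± 0.40 for Ddx3y, 0.66 ± 0.44 for Uty and 0.29 ± 0.33 for Kdm5d, and Ddx3y passed once sgUhrf1 replicate 2 was left out (log2 1.09, edgeR adjusted p = 0.0167). The part of muscle or host content in the levels of the 8 genes was not tested. Without the 2 muscle-rich tumours, sgUhrf1 replicate 1 and sgNT replicate 2, the log2 fold change of Spink4 was 11.27.

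Genes outside the 8 that make or modify mucus were higher in sgUhrf1 tumours in 8 of 8 tested, from a list of 32 of which 12 more lie only in rows shared with other genes. Muc6, Fcgbp, Agr2, Tff1 and Tff2 passed the filter on low counts only with the sgUhrf1 tumours, as the sgNT tumours alone held too few counts. Their direction was thus fixed in part by the filter. C1galt1, Galnt4 and Galnt12 would have passed it on the sgNT tumours alone. For comparison, 42.1% of all 4579 genes tested passed, 20.6% as higher and 21.5% as lower in sgUhrf1 tumours; the median log2 fold change of the 8 was 4.90 and that of all genes tested was -0.0027. Muc6, the gel-forming mucin of gastric glands, stood at 85.5, 1289 and 267 CPM in sgUhrf1 tumours and at 1.90, 0.741 and 0.354 CPM in sgNT tumours, a log2 fold change of 9.05 ± 1.18 (SE, edgeR adjusted p = 0.000722). Tff2, a trefoil peptide secreted with gastric mucus, stood at 375, 3241 and 3252 CPM in sgUhrf1 tumours and at 115, 12.3 and 0.177 CPM in sgNT tumours (5.74 ± 1.48, adjusted p = 0.0142). Tff1, the trefoil peptide of the stomach surface, stood at 156, 1171 and 946 CPM in sgUhrf1 tumours and at 122, 13.9 and 1.24 CPM in sgNT tumours (4.05 ± 1.25, adjusted p = 0.0299). Without sgNT replicate 1 the log2 fold changes were 9.85 for Muc6, 8.45 for Tff2 and 6.58 for Tff1, and without sgUhrf1 replicate 2 that of Muc6 was 7.40. For both trefoil genes sgNT replicate 1 was far above the other sgNT tumours and sgUhrf1 replicate 1 far below the other sgUhrf1 tumours, though no sgNT tumour reached an sgUhrf1 tumour.

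Other mucus genes rose too. Fcgbp, a large protein of the intestinal mucus gel, held 53, 748 and 55 counts in the sgUhrf1 tumours and 0, 0 and 2 counts in the sgNT tumours, so replicate 2 held most of them. The ratio of summed and scaled counts was 485 (exact 95% binomial interval 134 to 4014). This interval and the others of this kind cover counting error only, not the spread between tumours. The fitted log2 fold change of Fcgbp was 8.51 ± 1.47 (SE), and 6.36 without sgUhrf1 replicate 2 or 11.10 without sgNT replicate 3. Agr2, a disulfide isomerase needed to fold mucins, held 126, 540 and 100 counts in sgUhrf1 tumours and 3, 0 and 0 counts in sgNT tumours, a ratio of 290 (98.7 to 1407). Its fitted log2 fold change was 7.90 ± 0.96, and 6.92 without sgUhrf1 replicate 2, 10.97 without sgNT replicate 1 and 7.30 without sgNT replicate 2. The glycosyltransferase genes rose less: Galnt4, which starts O-glycan chains, by 2.00 ± 0.21 on the log2 scale, Galnt12 by 1.35 ± 0.38 and the core 1 synthase gene C1galt1 by 1.15 ± 0.21 (SE, n = 3 per group, edgeR adjusted p between 0.000257 and 0.0195). Among those not tested, Muc2, the main mucin of intestinal goblet cells, held 17 counts over the sgUhrf1 tumours and 2 over the sgNT tumours. Muc5ac, the mucin of the stomach surface and airway, held 0 counts in the sgUhrf1 group and 16 in the sgNT group, and Muc5b 9 and 5. The rows of Muc2, Muc5ac and Muc5b cover 535 of 7127, 171 of 10752 and 1025 of 14964 bp of exon, so these counts describe pieces only. Without sgNT replicate 2 the calls of Tff1, Tff2 and Galnt12 were lost (adjusted p = 0.0941, 0.0534 and 0.0817). Tff1 also missed the threshold without sgUhrf1 replicate 2 (0.0606) or 3 (0.0638) and without both muscle-rich tumours (0.0603), and Galnt12 without sgUhrf1 replicate 2 (0.0578) or sgNT replicate 3 (0.0621).

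**Figure D3:**
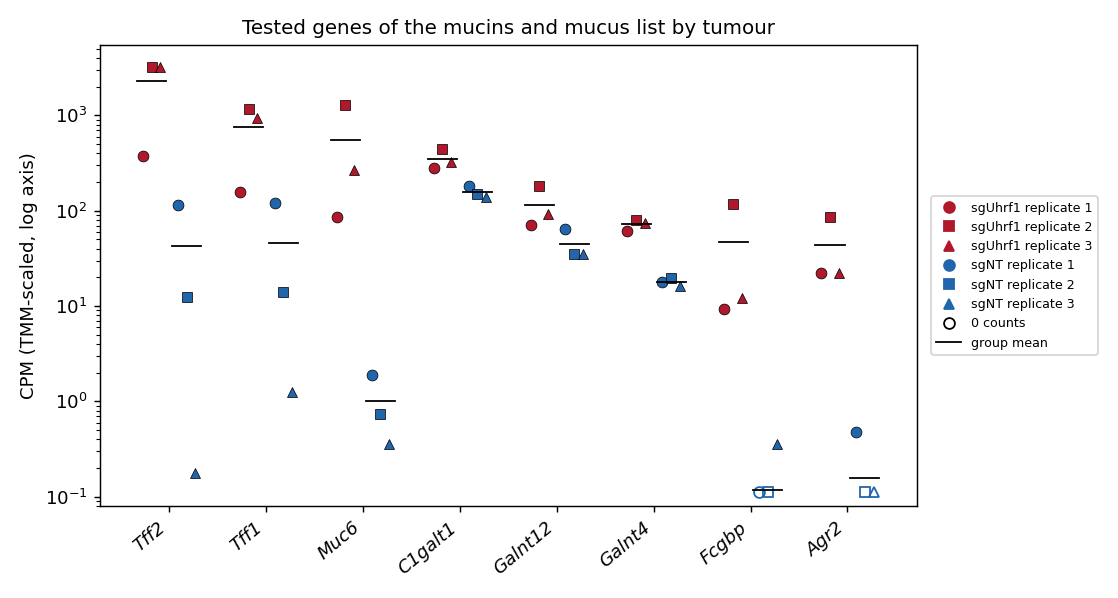
CPM of the 8 tested genes of the mucins and mucus list in each tumour on a log axis, with sgUhrf1 tumours in red left of sgNT tumours in blue and bars at group means; open symbols are tumours with 0 counts. Tff2 reached 3252 CPM in sgUhrf1 replicate 3, and C1galt1 lay between 278 and 441 CPM in sgUhrf1 tumours and between 140 and 181 CPM in sgNT tumours.

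Of the 38 listed genes of epithelial antimicrobial and innate defence, 5 could be tested and 3 of these were higher in sgUhrf1 tumours. These 3, Wfdc18, Bpifb1 and Il17re, passed the filter on low counts only with the sgUhrf1 tumours, so their direction was fixed in part by the filter. Wfdc18, of the whey acidic protein family of secreted inhibitors, held 101, 417 and 96 counts in sgUhrf1 tumours and 1, 2 and 0 counts in sgNT tumours, a ratio of 232 (interval for counting error only, 79.0 to 1128). Its fitted log2 fold change was 7.60 ± 0.82, and 6.74 without sgUhrf1 replicate 2, 8.36 without sgNT replicate 2 and 8.70 without both muscle-rich tumours. Bpifb1, a secreted airway and mucosal defence protein, held 51, 92 and 46 counts in sgUhrf1 tumours and 1, 0 and 0 counts in sgNT tumours, a ratio of 214 (38.0 to 8509, likewise). Its fitted log2 fold change was 7.24 ± 0.73, and 9.02 without sgNT replicate 1. Il17re, the epithelial receptor chain for interleukin 17C, stood at 107 ± 63.3 CPM in sgUhrf1 tumours and 2.66 ± 1.77 CPM in sgNT tumours (log2 5.29 ± 0.62 SE, n = 3 each, edgeR adjusted p = 0.000452). Nos2, the inducible nitric oxide synthase, did not pass at 1.28 ± 0.47 (adjusted p = 0.0567) but passed with DESeq2 (0.0327), with the stricter filter (0.0415), with the replicate block (0.0482), without sgUhrf1 replicate 2 (0.0354) or without sgNT replicate 3 (0.0352). Tnfrsf21 had a log2 fold change of -0.0043 ± 0.37, and its sign changed between scalings. The list's median was 5.29. Duox2, an epithelial oxidase subunit, was too low to test, with 84 counts in the sgUhrf1 group and 0 in the sgNT group (at least 31.7-fold).

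Relatives of the 8 genes by family did not move as a block. Of 7 tested from a list of 45, 4 were higher and 2 lower, with a median log2 fold change of 0.61. Among serine proteases, Prss27 rose by 1.81 ± 0.45 on the log2 scale and Prss12, the neuronal protease neurotrypsin, fell by 4.12 ± 0.36, while Prss22 stood at 0.067 ± 0.309 (SE, edgeR adjusted p = 0.0115, 0.000145 and 0.882). Among genes with scavenger receptor repeats like Dmbt1, Lgals3bp rose by 1.72 ± 0.28, Ssc4d by 0.89 ± 0.29 and Ssc5d fell by 2.40 ± 0.54. Fam3c, of the family of Oit1, rose by 0.61 ± 0.18 (adjusted p = 0.0230), with 184 ± 6.63 CPM in sgUhrf1 tumours and 121 ± 20.1 CPM in sgNT tumours (SD, n = 3 each, edgeR). The call of Fam3c was lost without filter (adjusted p = 0.0865), without sgUhrf1 replicate 1 (0.0617), sgNT replicate 2 (0.121) or sgNT replicate 3 (0.101), and without both muscle-rich tumours (0.217). That of Ssc4d was lost in 8 of 16 other settings (0.0590 to 0.184), among them the replicate block (0.0807) and leaving out either sgUhrf1 replicate 1 or 2 or any 1 sgNT tumour. Prss27 and Ssc5d missed the threshold without both muscle-rich tumours (0.0888 and 0.0656). The peptidoglycan recognition gene Pglyrp3 and the Kazal inhibitor gene Spink5 held 0 counts in all 6 tumours. Their rows cover 150 of 1107 bp and 94 of 4785 bp of exon, so these zeros describe those pieces only. The Kazal inhibitor gene Spink10, also not tested, held 0 counts in each sgUhrf1 tumour and 10, 15 and 5 counts in sgNT tumours. Untested Cd163l1 went the other way, with 5, 4 and 8 counts in sgUhrf1 tumours and 1, 1 and 0 in sgNT tumours. The rows of Spink10 and Cd163l1 cover 606 of 8273 bp and 56 of 3851 bp of exon.

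Among 26 listed transcription factor genes of secretory and gut lineages, 9 could be tested and 7 were higher in sgUhrf1 tumours. Among these, Ehf, Foxa3 and Nr1h4 passed the filter on low counts only with the sgUhrf1 tumours. Ehf, an epithelial ETS factor, stood at 48.5 ± 10.5 CPM in sgUhrf1 tumours and 1.81 ± 1.30 CPM in sgNT tumours (log2 4.70 ± 0.51 SE, n = 3 each, edgeR adjusted p = 0.000312). Foxa3, a forkhead factor of endoderm and goblet cells, rose by 3.82 ± 1.03, Nr1h4, the bile acid receptor, by 3.24 ± 0.41 and Creb3l4, a secretory pathway factor, by 2.22 ± 0.51. Of the 10099 bp in the row of Nr1h4, only 150 bp are its exon. Hnf4a stood at 386 ± 112 CPM in sgUhrf1 tumours and 38.6 ± 39.9 CPM in sgNT tumours (3.32 ± 0.82, edgeR adjusted p = 0.0117). For Foxa3, 28 of 31 sgNT counts lay in sgNT replicate 1, and without that tumour its log2 fold change was 6.47 and that of Hnf4a 4.46. Creb3l4 was at 1.52 without sgUhrf1 replicate 2. Foxa3 missed the threshold without sgNT replicate 2 (0.0628), and Hnf4a without both muscle-rich tumours (0.0530). Gata4 held 0 counts in all 6 tumours, in a row covering only 109 of its 3904 bp of exon. That piece is too small to say whether the gene was expressed.

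For gut epithelial markers, 4 of 25 could be tested and 3 of the 4 were higher in sgUhrf1 tumours. Lgals4, an intestinal galectin, rose by 4.63 ± 0.87 on the log2 scale, Vil1, the brush border actin-bundling protein villin, by 4.22 ± 0.62, and Cdh17, the intestinal cadherin, by 3.58 ± 0.31 (SE, n = 3 per group, edgeR adjusted p between 0.000136 and 0.00358). Lgals4 was at 5.81 without sgNT replicate 1, and Vil1 at 3.61 without sgUhrf1 replicate 2. Vil1 passed the filter on low counts only with the sgUhrf1 tumours, as sgNT replicate 3 held 9 counts. Krt20, an intestinal and urothelial keratin, was high in both groups, at 294 ± 107 CPM in sgUhrf1 tumours and 231 ± 41.9 CPM in sgNT tumours (SD), and did not pass (0.35 ± 0.28, edgeR adjusted p = 0.356). Over the 7 markers with a row of their own, the summed level was 1462 to 2847 CPM in sgUhrf1 tumours and 271 to 405 CPM in sgNT tumours. Sis, which encodes the sucrase of mature small intestinal absorptive cells, held 0 counts in all 6 tumours, and Chga, the enteroendocrine granule protein, held 7 counts in the sgUhrf1 group and 2 in the sgNT group. The row of Sis covers 865 of 7464 bp of exon and that of Chga 522 of 2756 bp. In the pieces measured, the 8 genes are thus not accompanied by every gut marker.

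**Figure D4:**
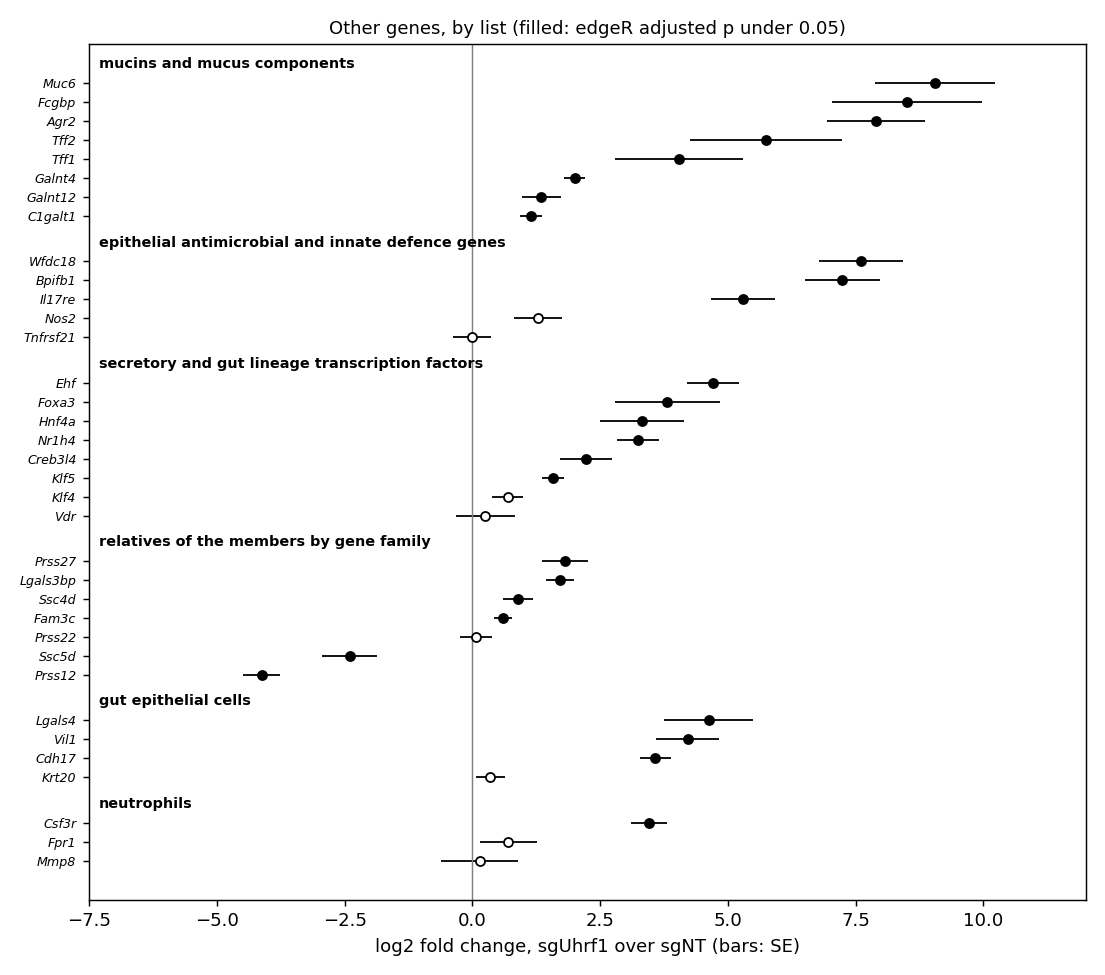
Log2 fold change of sgUhrf1 over sgNT tumours with its SE for tested genes of 6 lists; filled points passed an edgeR adjusted p of 0.05. All 8 mucus genes lie above 0, while the relatives of the 8 genes run from -4.12 for Prss12 to 1.81 for Prss27; fitted values of genes with 1 to 3 sgNT counts (Fcgbp, Agr2, Wfdc18, Bpifb1) depend on the prior count.

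Markers of other cell types that can hold these RNAs were measured alongside. Of the neutrophil list, which bears on Pglyrp1, 1 of 3 tested from 20 was higher: Csf3r, the granulocyte growth factor receptor, stood at 89.1 ± 22.6 CPM in sgUhrf1 tumours and 8.10 ± 3.80 CPM in sgNT tumours (log2 3.46 ± 0.35 SE, n = 3 each, edgeR adjusted p = 0.000246). Mmp8 (log2 0.15 ± 0.75) and Fpr1 (log2 0.70 ± 0.56) missed the threshold, and the granule protease gene Ctsg held 8 counts in the sgUhrf1 group and 7 in the sgNT group. Summed over the 4 neutrophil genes with a row of their own, the level was 80.0 to 123 CPM in sgUhrf1 tumours and 7.12 to 18.3 CPM in sgNT tumours, and in sgUhrf1 tumours nearly all of this sum was Csf3r itself (78.4, 73.8 and 115 CPM). Csf3r was highest in sgUhrf1 replicate 3, whereas Pglyrp1 was highest in replicate 2. The part of neutrophils in the level of Pglyrp1 was not tested.

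Airway secretory markers were low in the rows available, and Bpifb1 was the 1 of 12 that could be tested. Summed over the 6 with a row of their own, these markers reached 12.6 to 20.5 CPM in sgUhrf1 tumours and 0.741 to 2.06 CPM in sgNT tumours. The listed genes Scgb1a1, Scgb3a1 and Scgb3a2 had no row of their own. The rows covered 171 of 10752 bp of exon for Muc5ac and 103 of 2025 bp for Cyp2f2. Those of Bpifa1 and Bpifb1 covered 61 of 1545 bp and 115 of 3617 bp. These levels describe such pieces and do not show how much airway RNA was present. The club cell gene Cyp2f2 held 4 counts in the sgUhrf1 group and 0 in the sgNT group. The tumours are labelled as lung cancer, and of the airway markers with a row of their own, those other than Bpifb1 reached at most 4.92 CPM in sgUhrf1 tumours (Krt15) and 1.27 CPM in sgNT tumours (Muc5ac).

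By Pearson correlation over the 6 tumours with the mean standardised log2 CPM of the 8 genes, the most alike of 3188 other genes were Wfdc18 (0.998), the glucose-6-phosphate transporter family gene Slc37a1 (0.998), the purine oxidase gene Xdh (0.997), the lipase gene Liph (0.996) and the adhesion receptor gene Adgrg7 (0.996). Since the groups do not overlap, any gene with a like separation scores highly: 13.2% of the genes compared had a correlation above 0.9. Slc37a1 stood at 33.5, 77.1 and 33.9 CPM in sgUhrf1 tumours and at 2.53, 3.11 and 2.13 CPM in sgNT tumours. Xdh stood at 15.6, 22.5 and 15.2 CPM in sgUhrf1 tumours and at 4.28, 3.85 and 2.84 CPM in sgNT tumours. Adgrg7 held 0 counts in the sgNT group and was at least 112-fold higher in the sgUhrf1 group. The rows of Liph and Xdh covered only 80 and 93 bp of exon.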

How the data were processed

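The authors deposited raw counts for each of 6 tumours, with no normalization. The submitters' processing notes name fastp, STAR, featureCounts and the build GRCm38. Per the file headers, featureCounts 2.0.1 was run in paired mode on exons joined by gene name, with no strand setting and with chimeric pairs left out, on the GENCODE M26 annotation, which has coordinates of another build (GRCm39). Row names therefore rarely match the gene whose reads a row holds. Rows were renamed by the GENCODE M21 (GRCm38) exons that their listed intervals cover: 13434 rows cover at least 50 bp of a single gene, small RNAs ignored, and hold 41.4% of counts, while 4948 rows cover several genes and hold 56.8%. The most-counted row stood for a gene. The row listed as Psmd6, for example, holds Oit1, and Snrpd2 holds Pglyrp1. Reads of introns, antisense genes or close copies inside a row are not separated. Several rows of list genes hold little exon of the gene, such as 158 of 7103 bp for Nos2, 152 of 5818 bp for Lgals3bp and 115 of 3434 bp for Bpifb1.

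Rows were tested with the quasi-likelihood test of edgeR 4.0.16 in R 4.3.3 (TMM scaling, filterByExpr with minimum count 10 and total 15, Benjamini-Hochberg adjustment over 10503 rows, threshold 0.05). The step was also run on simulated data with far fewer changed rows than were called here. That run does not cover rows with 0 counts in a whole group. The filter keeps a row with about 10 counts in as many tumours as a group holds. A gene low in 1 group can thus enter only with the other group, which in part fixes its direction. limma 3.58.1 and DESeq2 1.42.0 were alternatives. The 8 genes and all lists were chosen with earlier results of these data known, so the 8 get no test. Named are the 8, from each list every tested gene up to 6 or else the 6 largest changes, and the 5 genes most alike in pattern (mean of at least 10 CPM in the higher group). C1galt1, Galnt12, Prss22 and the genes too low to test were named beyond this rule, after their values were seen. For the transcription factor list, 1 tested gene counted in its totals is not reported here. The labels call the tumours biological replicates but do not tie them to separate mice, so p-values measure the spread between these tumours. No pair of replicates agreed within sampling noise (chi-square per degree of freedom of at least 19).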

Additional observations from a re-analysis of the deposited data

How the results depend on the processing

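Over 16 other settings (scaling, filters, DESeq2, limma-voom, the replicate block, exon overlap, summed rows, left-out tumours), the 8 genes gave 102 values, of which 0 changed direction and 3 moved by more than their spread. The kept direction is no result, since the genes were selected as separated by group and a lower bound of a fold cannot change sign. The 3 values that moved are given above, as are all values of the 8 genes that moved by over 1.5 times when tumours were left out. DESeq2, limma-voom, the block and the filters give no bound for genes at 0 counts, the summed rows of Muc3a have 1 sgNT count and so no bound, and Lypd8 and Prss32 have under 200 bp of exon and drop out at that minimum. Of 620 values of 40 other named genes, 568 kept their direction and side of the threshold. Same-numbered tumours of both groups did not deviate together (correlations of -0.0795, -0.0209 and 0.05), so no pairing by number was seen. Deviations from means of 3 tumours can miss a pairing. Of the 6 tumours, 2, both replicate 3, correlated best with the tumour of their own number. With the replicate block 1838 rows were higher and 1807 lower.

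Leaving out 1 tumour at a time gave 1431 to 2020 rows higher and 1259 to 1908 lower, and 657 to 921 named genes higher and 613 to 902 lower; without both muscle-rich tumours, 1094 rows were higher and 771 lower, and 522 named genes higher and 384 lower. Higher list genes ranged over the left-out tumours from 5 to 8 (mucus), 3 to 5 (antimicrobial), 2 to 4 (relatives), 1 to 2 (airway), 0 to 2 (Y-linked) and 0 to 1 (muscle). Without both muscle-rich tumours, relatives had 1 higher and 1 lower, Y-linked genes 0 higher and muscle 1 higher. Without a filter on low counts, mucus had 1 lower and airway 2 higher and 1 lower. Relatives had 1 lower at a minimum count of 30 and at 200 bp of exon, where airway had 0 higher.

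Changes of sign were found in 4 genes, none of which passed the threshold with all 6 tumours; Ckm passed in the settings named above. Tnfrsf21 was 0.010 with median-of-ratios factors, 0.028 at a minimum count of 30, 0.0099 with DESeq2, 0.049 without both muscle-rich tumours and -0.45 to 0.26 with 1 tumour left out. Ckm was 2.47 with limma-voom, 3.10 with the block, 3.49 without both and -2.47 to 5.73 with 1 tumour left out. Mmp8 was -0.11 without both and -0.34 to 1.56 with 1 left out, and Ryr1 was -0.023 with rows summed and -1.35 to 2.16 with 1 left out. The cause of these changes was not tested. Groups of 3 tumours and 5462555 to 6375069 counts limit what can be called, and 56.8% of counts lie in rows that no single gene can claim.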
